A study of Rattus norvegicus with 4 samples.

Results

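The genes described here encode the receptors of the fast transmitters of the brain: GABA-A, GABA-B and glycine receptors, and the AMPA, kainate, NMDA, delta and metabotropic glutamate receptors. They were chosen by symbol (Gabr, Gabbr, Glra, Glrb, Gria, Grik, Grin, Grid and Grm), which gave 52 rat genes. Of these, 37 were measured, among 9302 genes measured in all. A further 10 (Gabra6, Gabre, Gabrg3, Gabrp, Gabrr1, Gabrr2, Gabrr3, Grin2b, Grik3 and Grm6) had a probe that was too dim, and 5 (Gabrb2, Grin2c, Grin3a, Glra4 and Grik2) were matched to no probe and are not analysed here. A gene counted as measured when 1 of its probes lay well above the array's background in T3 rats, or in saline rats, on 3 or 4 of the 4 arrays. The brightest such probe stood for the gene.

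The study asked how triiodothyronine (T3, the active thyroid hormone) alters the hypothalamic transcripts of hypothyroid rats. All 8 animals were male Sprague Dawley rats, aged 7 weeks when the study began and 10 weeks at collection, and all drank water with 0.025% methimazole (MMI, a blocker of thyroid hormone synthesis) over 22 days, so the controls were hypothyroid too. On day 21, 4 rats were injected with T3 at 25 µg per 100 g body weight and 4 with saline, and a block of hypothalamus (bregma -2.12 to -4.52 mm) was taken 24 h later. Each of 4 two-colour Agilent arrays held RNA of 1 T3 rat in one dye and of 1 saline rat in the other, and the unit of replication was therefore the pair of rats. The T3 rat was labelled with Cy5 on arrays 1 and 3, and with Cy3 on the other 2. No rat with normal thyroid function was compared, and the time after T3 was a single 24 h.

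GABA and glycine open chloride channels built of several subunits and mostly quiet the neuron, while GABA-B receptors act through G proteins. Glutamate opens the cation channels of the AMPA, kainate and NMDA classes and also acts on metabotropic receptors, which couple to G proteins and adjust release and excitability. T3 binds nuclear receptors that sit on DNA elements built from the half-site AGGTCA, and in the hypothalamus both GABA and glutamate neurons govern feeding, the pituitary axes and body temperature.

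Across the arrays, the median Cy3 spot brightness was 110 to 138.5 and the median Cy5 brightness 238 to 281, and the share of spots well above background was 51.0% to 68.3% for T3 rats and 52.4% to 63.6% for saline rats. Hr, a direct T3 target that served as a check of the labels, had log2 ratios of T3 over saline of 1.19, 1.00, 1.16 and 1.37 on arrays 1 to 4, a mean of 1.18 ± 0.15 (SD, n = 4, limma adjusted p = 0.0129). Of the markers of hypothalamic nuclei, 10 of 15 were measured, and of the markers of neurons 10 of 12. On array 4 alone, spots in rows above 420 were dim in both dyes: 641 of 2769 bright spots there (23.1%) were more than 3 log2 units dimmer than on the other arrays, against 11 of 11150 (0.0987%) in the remaining rows. On arrays 1 to 3, 0 of those 2769 spots were, but bright spots were chosen by their mean over these arrays, so that 0 was largely built in. Of the measured receptor genes, 13 had at least 1 spot in these rows.

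No receptor gene passed the test for T3 over saline. At a limma adjusted p under 0.05, 0 of 37 receptor genes were called, beside 0.161% of all genes (15 of 9302). At an unadjusted limma p under 0.05 there were 6 of 37, of which 3 were higher and 3 lower in T3 rats, beside 9.27% of all genes (862). By p, the 6 were Grm3, Grm4, Gabrb1, Gabbr1, Grin3b and Gabrg1. This count depended on the processing, as given in the last section. The median log2 ratio over the receptor genes was -0.006, with a range of -0.43 to 0.30, and the median over all genes was 0.004. Mean ratios above 0 were found in 17 of 37 receptor genes, beside 51.9% of all genes. In this bulk tissue, fewer cells of a type and less RNA per cell cannot be told apart.

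The signs were then counted without a test. A single sign on all 4 arrays was found in 8 of 37 receptor genes, beside 17.3% of all genes. Of these, 3 were higher in T3 on every array (Grm4, Grin3b and Gabrg1), beside 9.47% of all genes, and 5 were lower on every array (Grm3, Gabrb1, Gabbr1 and Glra1 among them), beside 7.83%. Glra1 passed the brightness filter through the saline rats alone, and Grin2a, which had no single sign, through the T3 rats alone. Over the 35 receptor genes well above background on at least 3 arrays in both groups, 3 were higher and 4 lower on every array, beside 7.89% lower among the 8951 such genes. The median size of the log2 ratio, sign left aside, was 0.048 over the receptor genes and 0.067 over all genes, and the median SD over arrays was 0.19 against 0.16. The 95% intervals of the 37 means reached no lower than -0.64 (Grm3) and no higher than 0.54 (Grin3b). Each interval is for 1 gene and is not adjusted for the number of genes, so together they do not exclude larger differences. The array 4 spot of Grin3b lay in the dim rows, and without that spot the Grin3b mean was 0.37 on 3 arrays.

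**Figure D1:**
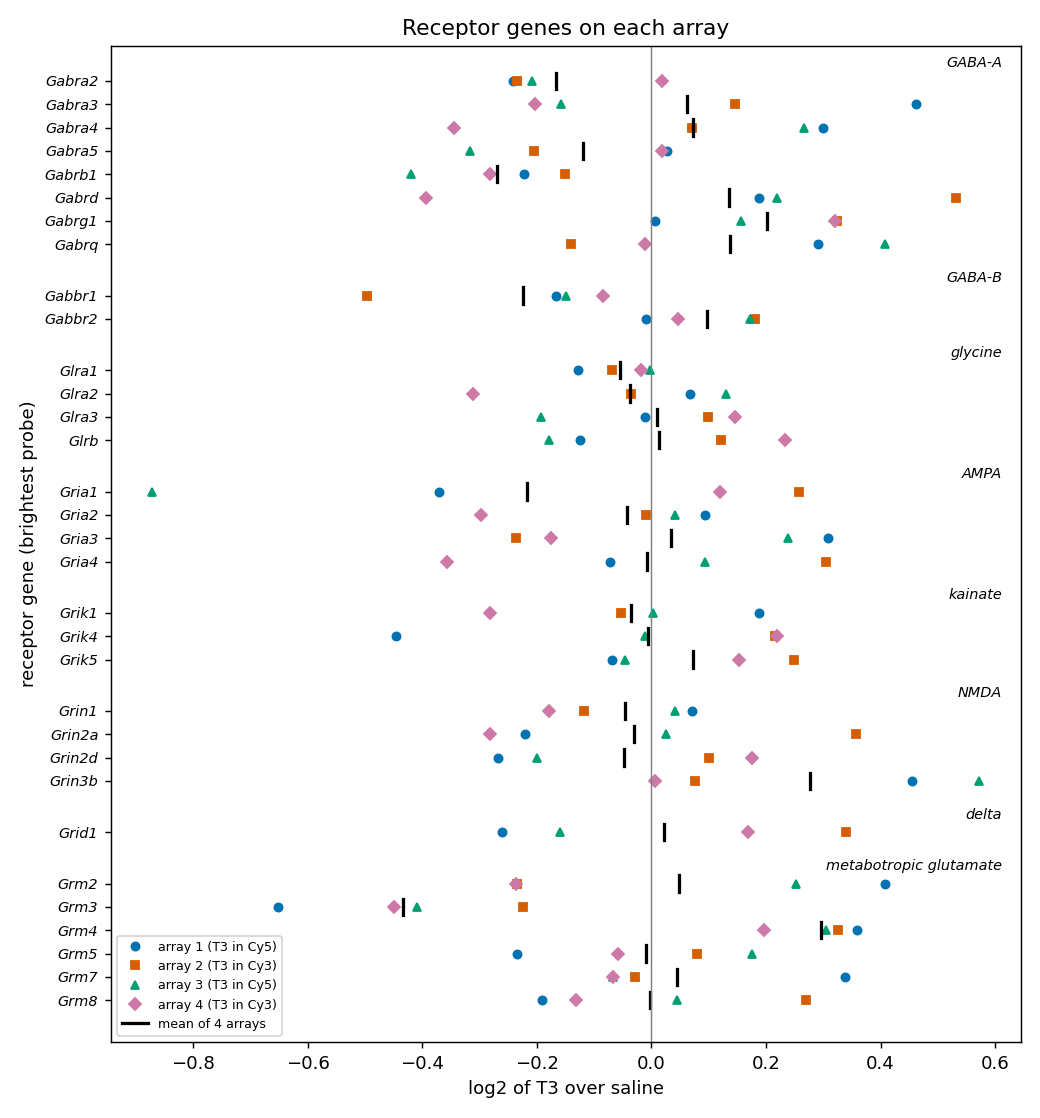
Log2 ratio of T3 over saline (horizontal axis) of 32 of the 37 measured receptor genes (vertical axis, grouped by family), with 1 symbol per array and a bar at the mean of 4 arrays. All 4 symbols of Grm3 lie left of 0 (mean -0.43) and all 4 of Grm4 lie right of 0 (mean 0.30), while for most genes the arrays fall on both sides of 0.

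Among GABA-A receptor subunits, 11 of 19 were measured, 7 with a mean above 0 and 4 below, and their median log2 ratio was 0.04. The subunit with the smallest p was Gabrb1, which encodes beta1, a subunit that contributes to the GABA binding interface. Its log2 normalized intensity in arrays 1 to 4 was 11.95, 12.09, 11.48 and 12.03 in the T3 rats and 12.18, 12.24, 11.90 and 12.31 in the saline rats. The T3 rat was the lower of its pair on every array, although the ranges of the T3 and saline rats overlapped. The log2 ratios were -0.22, -0.15, -0.42 and -0.28, a mean of -0.27 ± 0.11 (SD, n = 4, 0.83-fold, limma adjusted p = 0.336, 95% interval -0.44 to -0.09). In the authors' deposited table, Gabrb1 had ratios of 0.37, -0.48, 0.86 and -0.80, whose mean of -0.011 gave no single direction.

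Gabrg1 encodes gamma1, a gamma subunit, which joins an alpha subunit at the benzodiazepine site. Its log2 ratios were 0.006, 0.32, 0.16 and 0.32, a mean of 0.20 ± 0.15 (SD, n = 4, 1.15-fold, limma adjusted p = 0.579). All 4 arrays were above 0, array 1 by almost nothing. In the authors' deposited table, Gabrg1 had ratios of 0.083, 0.17, 0.28 and 0.73, with a mean of 0.32. With the scanner software's processed signals, it was above 0 on 3 of 4 arrays. Gabra2, the alpha2 subunit of many synaptic receptors, had ratios of -0.24, -0.24, -0.21 and 0.019, a mean of -0.17 ± 0.12 (SD, n = 4, limma adjusted p = 0.649). Its array 4 value stood apart from the other 3. Its only spot lay above row 420 on that array but was not itself dim, at -0.090 log2 units against the other arrays. Without that spot the mean was -0.23 (3 arrays, limma adjusted p = 0.549).

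Gabra5 encodes the alpha5 subunit, found mostly outside synapses. Its ratios were 0.027, -0.21, -0.32 and 0.018, a mean of -0.12 ± 0.17 (SD, n = 4, limma adjusted p = 0.822), lower on arrays 2 and 3 and close to 0 on arrays 1 and 4. Gabrq encodes theta, a subunit with a strong presence in the hypothalamus and in monoamine cell groups. Its ratios were 0.29, -0.14, 0.41 and -0.011, a mean of 0.14 ± 0.25 (SD, n = 4, limma adjusted p = 0.841). The 2 arrays above 0 were those with T3 in Cy5. The Gabrq spot lay in the dim rows of array 4, at -2.36 log2 units against the other arrays. Without that spot the Gabrq mean was 0.19 (limma adjusted p = 0.815), and without array 3 it was 0.046.

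Gabra3, the alpha3 subunit, had ratios of 0.46, 0.14, -0.16 and -0.20, a mean of 0.062 ± 0.31 (SD, n = 4), with arrays 1 and 2 above 0 and arrays 3 and 4 below. Gabrd and Gabra4, which encode the delta and alpha4 subunits that pair in extrasynaptic receptors, had SDs over arrays of 0.39 and 0.30. Gabrd had ratios of 0.19, 0.53, 0.22 and -0.39 and Gabra4 of 0.30, 0.070, 0.27 and -0.35, so that both were above 0 on arrays 1 to 3 and below 0 on array 4.

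Many GABA-A genes lie in clusters. In the RefSeq annotation of GRCr8, Gabrb1, Gabra4, Gabra2 and Gabrg1 follow each other on chromosome 14, with 1 protein-coding gene between Gabra4 and Gabra2 and none at the other steps. Their mean log2 ratios in that order were -0.27, 0.073, -0.17 and 0.20, with neighbours on opposite sides of 0 at each step. None of these 4 passed the test.

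RefSeq promoter sequences (GRCr8) were held for 34 of the 52 receptor genes. The T3 receptor half-site was searched as AGGTCA or its reverse complement TGACCT in the 250 bases before the start of the transcript, and was found in 2 of 34 (5.9%, Grin2c and Grm8) beside 14.1% of all 33469 promoters. A match describes letters and not a bound site. The promoters of Gabrb1 and Gabrg1 are printed because these genes lie at the ends of the chromosome 14 cluster and had the smallest p of the GABA-A family, in opposite directions, and that of Grm8 because it held the half-site. Each is read 5′ to 3′ on the strand of its gene, in lower case, with the half-site TGACCT in capitals (present in Grm8, and in neither of the other 2): Gabrb1 is chr14:36902894-36903143 on the minus strand, Gabrg1 chr14:37750042-37750291 on the plus strand and Grm8 chr4:57687507-57687756 on the minus strand.
Gabrb1: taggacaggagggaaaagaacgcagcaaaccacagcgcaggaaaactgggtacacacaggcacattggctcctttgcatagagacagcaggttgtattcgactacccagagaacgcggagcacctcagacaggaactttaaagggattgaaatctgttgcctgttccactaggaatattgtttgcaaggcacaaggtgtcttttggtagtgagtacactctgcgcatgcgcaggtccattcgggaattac
Gabrg1: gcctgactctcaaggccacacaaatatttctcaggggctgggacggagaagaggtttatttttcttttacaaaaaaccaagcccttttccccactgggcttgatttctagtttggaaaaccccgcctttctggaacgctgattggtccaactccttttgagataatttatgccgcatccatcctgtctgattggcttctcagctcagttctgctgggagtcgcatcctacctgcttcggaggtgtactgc
Grm8: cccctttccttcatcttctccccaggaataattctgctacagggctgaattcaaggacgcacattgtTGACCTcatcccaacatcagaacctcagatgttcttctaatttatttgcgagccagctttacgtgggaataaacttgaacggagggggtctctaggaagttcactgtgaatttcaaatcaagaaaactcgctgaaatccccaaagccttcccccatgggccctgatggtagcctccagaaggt
Their GC content was 49.2%, 48.4% and 47.2%, against a median of 51.2% over all promoters. Grm8, a presynaptic group III metabotropic receptor, had a mean log2 ratio of -0.002 ± 0.21 (SD, n = 4), with arrays on both sides of 0.

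Both GABA-B genes were measured. The receptor works as a dimer in which the Gabbr1 product binds GABA and the Gabbr2 product couples to the G protein. Gabbr1 had ratios of -0.17, -0.50, -0.15 and -0.084, a mean of -0.22 ± 0.19 (SD, n = 4, 0.856-fold, limma adjusted p = 0.570). All 4 arrays were below 0, with array 2 lowest, and without array 2 the mean was -0.13. In the authors' deposited table, Gabbr1 had ratios of -0.30, 0.14, 0.37 and -0.87. The probe had 10 spots on each array, 5 of them above row 420, and the mean without those was -0.21. Gabbr2 had ratios of -0.010, 0.18, 0.17 and 0.047, a mean of 0.097 ± 0.094 (SD, n = 4, limma adjusted p = 0.835). Arrays 2, 3 and 4 were above 0 and array 1 was just below it, and the difference between these genes was not tested.

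Of the glycine receptor genes, 4 of 5 were measured, with means from -0.054 (Glra1) to 0.013 (Glrb). Glra1, the adult alpha subunit of spinal and brainstem receptors, had ratios of -0.13, -0.068, -0.002 and -0.018, a mean of -0.054 ± 0.057 (SD, n = 4, limma adjusted p = 0.928). All 4 values were below 0, but arrays 3 and 4 by less than the spread between arrays. Its probe was dim, well above background on 2 of 4 arrays in T3 and 3 of 4 in saline, and a dimmer probe of the gene, left out by the filter, had a mean of 0.051. Glrb, the beta subunit that binds the scaffold gephyrin, had ratios of -0.12, 0.12, -0.18 and 0.23, a mean of 0.013 ± 0.20 (SD, n = 4, limma adjusted p = 0.994). Its sign was split by dye orientation: the arrays with T3 in Cy5 were below 0 and those with T3 in Cy3 above.

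All 4 AMPA receptor genes were measured, with means from -0.22 (Gria1) to 0.034 (Gria3). Gria1 encodes GluA1, the subunit added to synapses with activity, and its ratios were -0.37, 0.26, -0.87 and 0.12. The mean of -0.22 ± 0.51 (SD, n = 4, limma adjusted p = 0.855) joined 2 arrays clearly below 0 and 2 above, again split by dye. Gria1 had the largest SD of the 37 genes. Without array 3 its mean was 0.001. Gria3, which encodes GluA3, had ratios of 0.31, -0.24, 0.24 and -0.18, a mean of 0.034 ± 0.28 (SD, n = 4, limma adjusted p = 0.982), and a fainter probe of the gene gave 0.043 ± 0.15. Gria2, the subunit that makes the channel tight to calcium, had a mean of -0.043 ± 0.18 and Gria4 one of -0.008 ± 0.28 (SD, n = 4).

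Of the kainate receptor genes, 3 of 5 were measured. Grik5, whose product GluK5 raises the affinity of the channel, had ratios of -0.069, 0.25, -0.046 and 0.15, a mean of 0.072 ± 0.15 (SD, n = 4, limma adjusted p = 0.917). Arrays 2 and 4 were above 0 and arrays 1 and 3 below. Grik1, which encodes GluK1, had ratios of 0.19, -0.053, 0.002 and -0.28, a mean of -0.036 ± 0.19 (SD, n = 4, limma adjusted p = 0.973), and Grik4 had a mean of -0.006 ± 0.31.

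Of the NMDA receptor genes, 4 of 7 were measured. Grin3b encodes GluN3B, a subunit that binds glycine and lowers calcium entry. Its log2 ratios were 0.45, 0.076, 0.57 and 0.007, a mean of 0.28 ± 0.28 (SD, n = 4, 1.21-fold, limma adjusted p = 0.575, 95% interval 0.019 to 0.54). Arrays 1 and 3, with T3 in Cy5, were high and arrays 2 and 4 lay near 0. Its spot on array 4 lay in the dim rows, at -1.77 log2 units against the other arrays. Without that spot the mean was 0.37 (3 arrays, limma adjusted p = 0.475), and without array 3 it was 0.18. In the authors' deposited table, Grin3b had ratios of 0.14, 0.28, -0.32 and 0.27, with a mean of 0.095. Grin1, the obligatory subunit, had a mean of -0.046 ± 0.12 (SD, n = 4) and Grin2a one of -0.030 ± 0.29. The Grin2a probe was dim, well above background on 3 of 4 arrays in T3 and 2 of 4 in saline. Grin2d, a subunit that slows the closing of the channel, had ratios of -0.27, 0.10, -0.20 and 0.18, a mean of -0.048 ± 0.22 (SD, n = 4, limma adjusted p = 0.966).

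Delta receptors bind cerebellins in the synaptic cleft and help to hold synapses together. Grid1, of this family, had ratios of -0.26, 0.34, -0.16 and 0.17, a mean of 0.022 ± 0.28 (SD, n = 4, limma adjusted p = 0.990), with its sign split by dye.

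The 2 receptor genes with the smallest p of all were metabotropic glutamate receptors, of which 7 of 8 were measured. Grm3 encodes mGlu3, a group II receptor that lowers cAMP and is made by astrocytes as well as neurons. Its log2 normalized intensity on arrays 1 to 4 was 11.14, 10.78, 11.26 and 11.41 in T3 rats and 11.80, 11.01, 11.67 and 11.86 in saline rats. The T3 rat was the lower of each pair, while the groups overlapped, with both rats of array 2 lower than the others of their group. The log2 ratios were -0.65, -0.23, -0.41 and -0.45, a mean of -0.43 ± 0.17 (SD, n = 4, 0.74-fold, limma adjusted p = 0.161, 95% interval -0.64 to -0.23). Another Grm3 probe was dimmer and gave -0.44, -0.21, -0.21 and -0.19, a mean of -0.26 ± 0.12 (SD, n = 4, limma adjusted p = 0.361). In the authors' deposited table, Grm3 had ratios of -0.39, -0.36, -0.44 and -0.38.

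After loess normalization, Grm3 was thus below 0 on every array by both probes, without passing the threshold. It was also below 0 throughout the authors' deposited table, which comes from the same 4 arrays. With median centring in place of loess, Grm3 was above 0 on 1 of 4 arrays. Astrocyte markers are given beside it: 9 of 10 were measured, 6 with a mean below 0 and 3 above, 0 passed the test, and the list's median log2 ratio was -0.20, -0.34, -0.21 and 0.085 on arrays 1 to 4. The smallest p of the list were those of the connexin Gja1 at -0.62 (limma adjusted p = 0.0931), Aldoc at -0.26 (limma adjusted p = 0.281), and, on the other side of 0, Fgfr3 at 0.34 (limma adjusted p = 0.312) and Slc1a2 at 0.34 (limma adjusted p = 0.429). On array 4, Grm3 was at -0.45, Gja1 at -0.30 and Aldoc at -0.27, while Fgfr3 was at 0.29 and Slc1a2 at 0.36. The part of astrocytes in the Grm3 ratio was not tested.

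Grm4 encodes mGlu4, a group III receptor of nerve endings. Its log2 normalized intensity was 11.33, 10.11, 11.04 and 11.58 in T3 rats and 10.97, 9.79, 10.73 and 11.39 in saline rats. In each pair the T3 rat was the higher. The pair means were 11.148, 9.951, 10.883 and 11.485, and only the pair of array 2 stood far from the others. The ratios were 0.36, 0.33, 0.31 and 0.20, a mean of 0.30 ± 0.070 (SD, n = 4, 1.23-fold, limma adjusted p = 0.243, 95% interval 0.14 to 0.46). In the authors' deposited table, Grm4 had ratios of 0.28, -0.070, 0.66 and -0.35, with signs that differed between arrays.

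The other metabotropic receptors had means near 0. Grm2, the group II partner of Grm3, had ratios of 0.41, -0.23, 0.25 and -0.24 (mean 0.048 ± 0.33, SD, n = 4). Grm7 had 0.34, -0.028, -0.067 and -0.067 (mean 0.044 ± 0.20), with array 1 apart from the other 3. Grm5, a group I receptor that raises intracellular calcium, had a mean of -0.009 ± 0.18 (SD, n = 4). No further metabotropic gene had a single sign on all 4 arrays.

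Several receptor genes followed the dye more than the treatment. With a term for Cy5 over Cy3 beside T3, 10 of 37 receptor genes had an unadjusted limma p under 0.05 for the dye, beside 15.6% of all genes, and 0 passed at an adjusted p under 0.05 among either. In 23 of 37 receptor genes the dye effect was larger in size than the T3 effect, as it was in 54.8% of all genes. The largest were Gria1 at -0.41 (limma adjusted p = 0.196), Grm2 at 0.28 (limma adjusted p = 0.185), Gria3 at 0.24 and Grin3b at 0.24. Grm3 (-0.096), Grm4 (0.036) and Gabrb1 (-0.052) had dye effects smaller than their T3 ratios. With the dye term, the smallest limma adjusted p for T3 over the receptor genes was 0.107 (Grm3), and 0 of 37 were called, beside 8 of 9302 genes. In that fit 8 of 37 had an unadjusted limma p under 0.05 for T3, beside 13.2% of all genes.

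**Figure D2:**
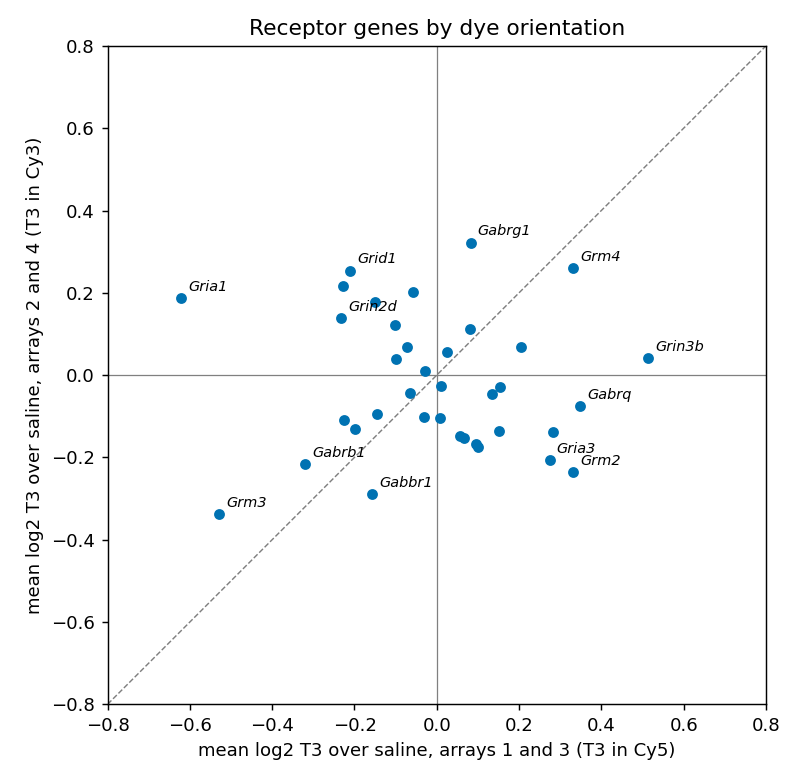
Mean log2 ratio of T3 over saline on the arrays with T3 in Cy5 (horizontal axis, arrays 1 and 3) against the arrays with T3 in Cy3 (vertical axis, arrays 2 and 4), with 1 point per receptor gene and a dashed line of equal values. Grm3, Gabrb1 and Grm4 lie near the line, while Gria1 (-0.62 and 0.19) and Grm2 (0.33 and -0.24) lie far from it on opposite sides of 0.

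The level of some receptor genes differed far more between pairs of rats than between T3 and saline. Gabrd had log2 intensities of 11.97, 8.86, 11.28 and 12.17 in T3 rats and 11.78, 8.33, 11.06 and 12.57 in saline rats of arrays 1 to 4. Both rats of array 2 were the lowest, and the pair means spanned 3.78 log2 units (13.7-fold), against at most 0.53 within a pair. Of the 30 receptor genes with values outside the dim rows on all 4 arrays, 5 had pair means more than 1 log2 unit apart, beside 4.76% of all 7464 such genes. These were Gabrd (3.78), Gabra4 (2.05), Grm4 (1.53), Gabbr2 (1.01) and Gabbr1 (1.01), and the median span was 0.51 over the receptor genes and 0.37 over all genes.

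Prkcd, a kinase gene that marks relay neurons of the thalamus, was set beside them after its values were seen. Its pair means were 14.78, 11.54, 13.90 and 15.11, lowest on array 2 and highest on array 4. The same order of the 4 arrays was found in 13 of 30 receptor genes (among them Gabrd, Gabra4, Grm4, Gabbr2, Gabbr1, Grin2a, Grm3, Glra1, Grin1, Grik4 and Grm7), beside 18.0% of all genes. The spans of their pair means ran from 3.78 (Gabrd) down to 0.27 (Grik4) and 0.20 (Grm7). Some matches rested on near ties, such as 6.833 and 6.836 for Glra1 on arrays 2 and 3, or 11.470 and 11.467 for Grm3 on arrays 1 and 3. Delta and alpha4 subunits are known from thalamic relay neurons. Of the 5 thalamus markers measured, 4 (Prkcd, Lef1, Cacna1g and Slc17a6) were lowest on array 2, while Calb2 was at 14.93, 15.14, 15.14 and 15.14. Of the 10 markers of hypothalamic nuclei measured, 9 had their highest pair mean on array 2, and Pmch, at 17.15, 17.12, 17.24 and 17.20, its lowest.

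Within pairs, the log2 ratios of T3 over saline of Prkcd were 0.29, 0.53, 0.24 and -0.26, and those of Gabrd 0.19, 0.53, 0.22 and -0.39. Gabra4 had the same signs, above 0 on arrays 1 to 3 and below on array 4, and Grm4 was above 0 on all 4 arrays. Of the thalamus markers, 5 of 8 were measured, 3 with a mean above 0 and 2 below, and their median ratio on arrays 1 to 4 was -0.078, 0.076, -0.063 and -0.26. The part of the tissue taken in the block in these values was not tested.

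**Figure D3:**
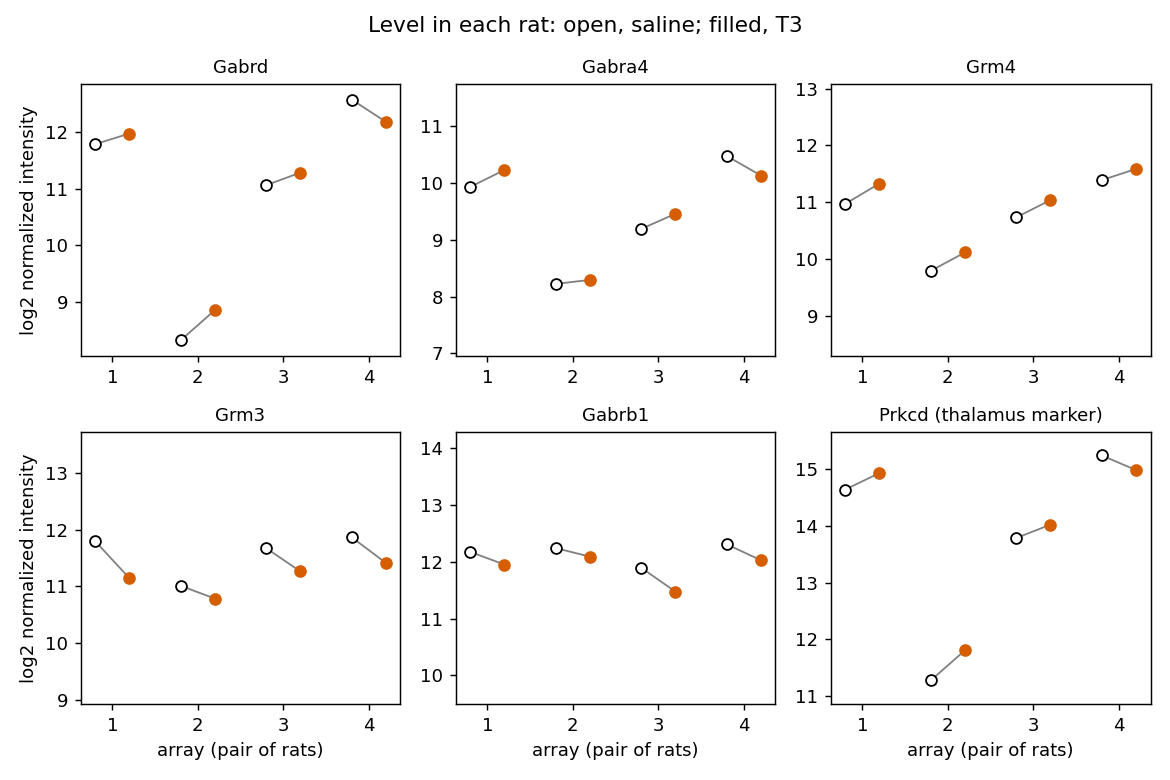
Log2 normalized intensity (vertical axis, the same span in every panel) of 5 receptor genes and of Prkcd in each of 8 rats, by array (horizontal axis), with the saline rat of a pair open and the T3 rat filled and a line joining them. Gabrd, Gabra4, Grm4 and Prkcd are lowest in both rats of array 2 (Gabrd 8.86 and 8.33), while Gabrb1 spans 11.48 to 12.31 over all rats.

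The dim rows of array 4 were followed through every receptor gene. Among the 13 genes with a spot there, 7 had no other spot on the array (among them Grin3b, Gabra2, Gabrq, Grid1 and Grm8) and 6 had 10 spots of which only some were there (among them Gabbr1, Gria1, Grin1, Gria2 and Grm5). The log2 brightness on array 4 minus that on the others was -2.36 for Gabrq and -1.77 for Grin3b, but -0.090 for Gabra2, -0.071 for Grm8 and 0.099 for Grid1, which were not dimmed. More than 3 log2 units down were 2 spots of Gabbr1 (the lowest at -5.47) and 1 spot of Gria2 (-5.07). With every spot above row 420 of array 4 left out, a choice made after seeing the data, 0 of 37 receptor genes were called, beside 15 of 9290 genes. An unadjusted limma p under 0.05 was found in 6, beside 8.98% of all genes, and the smallest adjusted p was 0.175 (Grm3). Grid1 changed sign, from 0.022 to -0.027, as did Grm8, from -0.002 to 0.041.

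**Figure D4:**
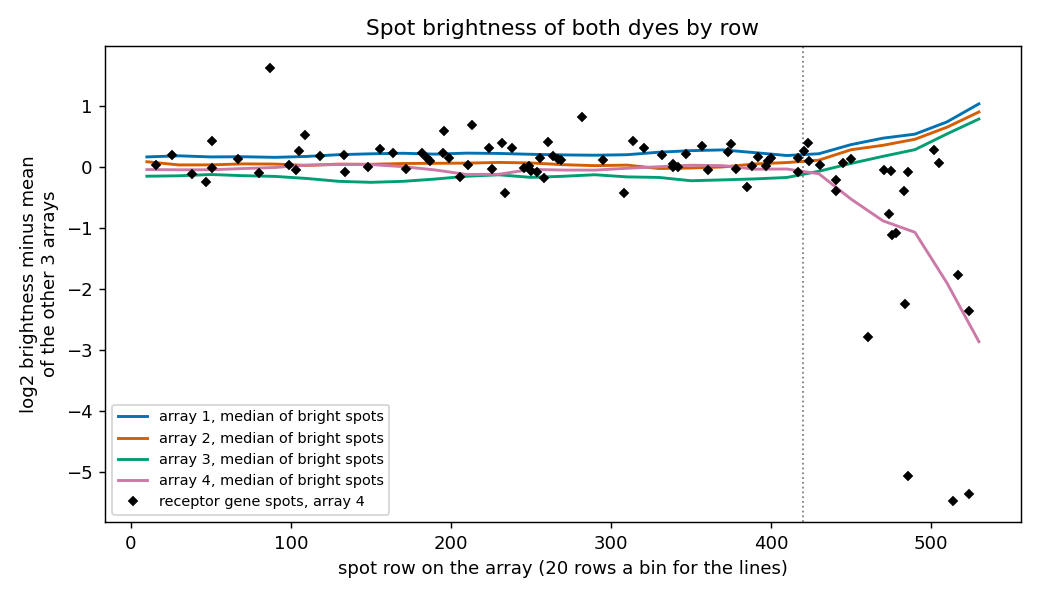
Log2 brightness of both dyes relative to the mean of the other 3 arrays (vertical axis) by spot row (horizontal axis), with a line per array for the median of bright spots in bins of 20 rows and a diamond for each receptor gene spot on array 4. To the right of the dotted line at row 420 the array 4 line falls and receptor spots such as those of Gabrq (-2.36) and Grin3b (-1.77) lie below 0.

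The partners of these receptors were counted from lists of pathway genes, in each of which 0 genes passed the limma test at an adjusted p under 0.05. Among genes of GABA synthesis, transport and breakdown, 7 of 9 were measured, 6 with a mean above 0 and 1 below, with a median log2 ratio of 0.13. That median was 0.015 without array 1, with 4 of 7 above 0, and 0.055 without array 4. The smallest p was that of Abat, the GABA transaminase, with 0.099, 0.21, 0.14 and 0.24 (mean 0.17 ± 0.067, SD, n = 4, limma adjusted p = 0.574), above 0 on every array. Slc32a1, the vesicular transporter, had a mean of 0.13 ± 0.20 (SD, n = 4, limma adjusted p = 0.818). Among scaffold and chloride transport genes of the inhibitory synapse, 15 of 20 were measured, 7 above 0 and 8 below. The chloride importer Slc12a2 had the smallest p, at -0.24 ± 0.26 (SD, n = 4, limma adjusted p = 0.641), followed by Nlgn2 at -0.15 and Lhfpl4 at 0.083.

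Glycine is also a co-agonist of NMDA receptors, as is D-serine. Of the genes that transport and break down glycine and handle D-serine, 8 of 10 were measured. Dao, the enzyme that degrades D-serine, passed the brightness filter through T3 rats alone, with a probe well above background on 4 of 4 arrays in T3 rats and 1 of 4 in saline rats. Its ratios of 0.78, 0.41, 0.51 and 0.70 are therefore given without a test. The other 7 had means above 0, beside 51.9% of all genes, and 1 of them had an unadjusted limma p under 0.05, beside 9.27%. In the authors' deposited table, 6 of the 8 were above 0, a count that includes Dao and so cannot be set beside that of the other 7. Slc7a10, an exchanger of D-serine and small neutral amino acids, had 0.36, 0.20 and 0.27 on arrays 1 to 3 and no value on array 4 (mean 0.28 ± 0.083, SD, n = 3, limma adjusted p = 0.444). Shmt2, which makes glycine from serine, had a mean of 0.12 (limma adjusted p = 0.761).

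Of the genes of glutamate release, uptake and metabolism, 12 of 16 were measured, 6 above 0 and 6 below, and 5 had an unadjusted limma p under 0.05 (2 above 0 and 3 below), beside 9.27% of all genes. Slc38a3, a glutamine transporter of astrocytes, had ratios of 0.30, 0.59, 0.23 and 0.39, a mean of 0.38 ± 0.15 (SD, n = 4, limma adjusted p = 0.20). Slc1a2, the main glial glutamate transporter, had a mean of 0.34 ± 0.26 with array 2 below 0 (limma adjusted p = 0.429), and Glud1, glutamate dehydrogenase, one of -0.33 ± 0.31 with array 1 above 0 (limma adjusted p = 0.522). These 3 genes had the smallest p of their list. Of the auxiliary subunits of ionotropic glutamate receptors, 14 of 20 were measured, 8 above 0 and 6 below, led by Nptx1 at 0.26 ± 0.18 (SD, n = 4, limma adjusted p = 0.474), Cbln4 at -0.14 and Neto2 at 0.24. Of the excitatory postsynaptic scaffold, 19 of 24 were measured, 10 above 0 and 9 below, led by Grip1, an AMPA receptor anchor, at -0.20 ± 0.11 (SD, n = 4, limma adjusted p = 0.553), Homer3 at -0.14 and Dlg2 at 0.11.

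Medians by family were 0.040 for GABA-A, -0.063 for GABA-B, -0.014 for glycine, -0.026 for AMPA, -0.006 for kainate, -0.038 for NMDA and -0.002 for metabotropic glutamate receptors, in log2 of T3 over saline. Grouped by transmitter, the 17 GABA and glycine receptor genes had a median of 0.010 and the 20 glutamate receptor genes one of -0.008. Markers of neurons, the cells that carry most of these receptors, had a median of 0.009, and 0 passed the test. Means above 0 were found in 8 of 10, beside 51.9% of all genes. The means ran from -0.12 to 0.19, and several of those above 0 were at 0.02 or less. By array the receptor median was -0.010, 0.070, 0.002 and -0.084, and the neuronal median 0.012, 0.099, 0.092 and -0.085, highest on array 2 and lowest on array 4 in both.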

How the data were processed

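Total RNA from 8 rats was compared on 4 two-colour Agilent arrays. The authors deposited the scanner output, in which the median pixel intensity of each spot and of its surround is raw. Per the file headers, it was written by Agilent Feature Extraction 10.7.3.1. That software's processed intensity, also deposited, served as an alternative, and its deposited log10 ratio of the dyes was not used. The authors' deposited value table holds log ratios, read here as log2 of T3 over saline: the slope of 10 spike-ins on the scanner ratios was 0.994, 1.04, 1.04 and 1.05 on arrays 1 to 4. Its log base, centring and normalization steps are not given in the sources used here, beyond limma 3.18.9 in the submitters' processing notes. Its columns had medians of 0.0026, -0.0024, 0.0021 and 0.0030. Over probes well above background on all 4 arrays in T3 rats or in saline rats, it correlated with the scanner ratios at 0.44, 0.44, 0.19 and 0.29. Its slopes on those ratios were 0.40, 0.46, 0.34 and 0.49, unlike the slopes of the spike-ins. Over the same probes its arrays 3 and 4 correlated at -0.52 with each other.

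Intensities were read into limma 3.58.1 (R 4.3.3), corrected for background by normexp with an offset of 50 and normalized by loess within each array, with control spots at weight 0. Outlier spots, as marked by the scanner software, were dropped, and replicate spots of a probe were averaged. Ratios were turned to T3 over saline. The filter named in the report left 23183 of 41012 probes, named through RefSeq accessions without versions (GRCr8), and 16964 probes had 1 symbol while 24048 had none. Levels per rat are log2 intensities after Aquantile normalization between arrays.

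T3 over saline was tested with limma (lmFit and eBayes, 2-sided, 3 residual and 4.36 prior degrees of freedom), with Benjamini-Hochberg adjustment over all kept probes. In all, 23 probes were called, 22 higher and 1 lower. The limma fit and its adjustment were tested on simulated log ratios, without the normalization and filter steps before them. The number of arrays limits the precision. Receptor genes described in full were the 12 with the smallest p, the highest and lowest mean of each family and any with 1 sign on all 4 arrays and a mean of at least 0.2 in size, and of each pathway list the 3 with the smallest p. The report also names genes for their level between pairs, their dye effect or their place on array 4, which were chosen after their values were seen. A few genes that this rule takes, or that the lists hold, are counted but not reported here by name. The receptor genes and the lists were chosen with earlier results of these data known. Alternatives covered the background, normalization, filter, dye term, variance model, array weights, probe choice, each array left out, the authors' values and the dim rows of array 4.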

Additional observations from a re-analysis of the deposited data

Results flagged for a closer look

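Within single receptor genes and list medians, 49 sets of 4 arrays were examined for an array far from the other 3, and 2 were found, where chance gives about 1 in 20. Gabra2 was at 0.019 on array 4 against -0.24, -0.24 and -0.21 on arrays 1 to 3, and its spot on array 4, though above row 420, was not dim (-0.090 log2 units against the other arrays). Grm7 was at 0.338 on array 1 against -0.028, -0.067 and -0.067 on the others, and its spot lay outside the rows above 420.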

How the results depend on the processing

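The number of receptor genes called by limma was 0 under every alternative run, and the smallest adjusted p, always that of Grm3, ran from 0.103 (without array 2) to 1 (median centring in place of loess). Over all probes, the 23 calls became 0 with the scanner software's processed signals (1603 at an unadjusted p under 0.05), 0 with median centring (132), 67 with no filter on brightness, 15 with a dye term, 38 with eBayes trend and robust, and 10 with the authors' values; leaving out each array gave 0 to 68, with 68 without array 2 and 0 without array 1, 3 or 4. Receptor genes with a single sign on every array, 8 in the report, numbered 4 with the processed signals, 1 with median centring and 4 with the authors' values, and 8 to 11 with an array left out, a count over 3 arrays that cannot be set beside the 8 over 4. Receptor genes at an unadjusted limma p under 0.05, 6 in the report, numbered 8 with the dye term, 4 with the processed signals, 0 with median centring and 2 with the authors' values. Over all 23183 probes these counts were 2902, 1603, 132 and 1133, against 1881 in the report. For the list of glutamate release, uptake and metabolism, 5 of 12 in the report, they were 5, 2, 0 and 3. The receptor median of -0.006 was 0.060 with the authors' values and -0.038 to 0.041 with an array left out. Of the 18 genes described in full, 7 changed sign in 14 of 269 alternative values: Gabra5 to 0.063 with the authors' values, Glrb to -0.034 and Gria3 to -0.011 with median centring, Grid1 to -0.027 without the dim rows of array 4, and the rest with an array left out. Those were Gria1 (-0.375 to 0.001, the last without array 3), Glrb (-0.060 to 0.077, below 0 without array 2 or 4), Gria3 (-0.057 to 0.124, below 0 without array 1 or 3), Grik1 (-0.111 to 0.045, above 0 without array 4), Grin2d (-0.122 to 0.026, above 0 without array 1 or 3) and Grid1 (-0.084 to 0.116, below 0 without array 2 or 4). Fits with an array left out have fewer samples by construction, and for the others the cause was not tested. Grm3 stayed between -0.50 and -0.35, Grm4 between 0.13 and 0.33 and Gabrb1 between -0.32 and -0.011. These are means over arrays: with median centring, Grm3 was above 0 on 1 of 4 arrays, and Grm4 and Gabrb1 on 2 of 4 each. Family and pathway medians moved by more than their spread in 7 of 196 values.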
